A study of Mus musculus with 6 samples.

Results

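The genes described here are the 6 TNF receptor-associated factors Traf1 to Traf6, the TRAF3-binding protein gene Traf3ip3, and Birc2 and Birc3, which encode the cellular inhibitors of apoptosis cIAP1 and cIAP2. They were chosen by name, with earlier results of these data known, as 9 of the 49671 genes in the tables, and all 9 were found. RNA was sequenced from CD3+ T cells that had been isolated from the spleens of F1 mus x cast females with enrichment columns, in 2 groups of 3 libraries, which the labels call biological replicates. Stimulated cells were cultured for 48 h with 1 µg/ml plate-bound anti-CD3 and 10 µg/ml soluble anti-CD28, antibodies against the T cell receptor complex and the costimulatory protein CD28, while unstimulated cells went directly into TRIzol on the day of isolation, so stimulation and time in culture cannot be told apart. All mice of both groups had C57BL/6 mothers that carried a heterozygous Xist deletion and M. m. castaneus fathers. The mothers' alleles are called mus here and the fathers' alleles cast, and the age of the mice is not given in the sources used here. The title of the series names NF-kB signalling and X inactivation. All 9 genes lie on autosomes.

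TRAF proteins bind the cytoplasmic tails of TNF receptor family members or adaptors of Toll-like and interleukin-1 receptors and pass the signal on to NF-kB and MAP kinases. TRAF2, alone or with TRAF1, holds cIAP1 and cIAP2, which are ubiquitin ligases. In resting cells TRAF3 brings the kinase NIK to this complex for degradation, which keeps the noncanonical NF-kB arm off, and in T cells the same complexes act below costimulatory receptors such as 4-1BB, OX40 and CD27.

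Positions are those of GENCODE M21 on mm10, where all 9 are annotated as protein-coding. Traf1 lies on chromosome 2 from 34941750 to 34961772, Traf2 on chromosome 2 from 25517982 to 25546940, and Traf6 on chromosome 2 from 101678429 to 101701669. Traf5 and Traf3ip3 lie on chromosome 1, from 191997205 to 192092559 and from 193175453 to 193201703. Traf3 lies on chromosome 12 from 111166370 to 111267153 and Traf4 on chromosome 11 from 78158499 to 78165589. Birc2, on chromosome 9 from 7818227 to 7837064, and Birc3, from 7848699 to 7873186, are neighbours on the minus strand, 11.6 kb apart.

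The stretches upstream of 4 of these genes are shown because Traf1, Birc2 and Birc3 are the genes whose balance of mus and cast reads changed with stimulation, and because Traf3 held the single NF-kB consensus match among the 9 genes. The sequences are those of RefSeq on GRCm38.p6, which is the C57BL/6 and so the mus sequence, and the cast sequence is not used here. Each is printed 5′ to 3′ on the strand of the gene and ends at the RefSeq start site (Traf1, Traf3) or 7 (Birc2) and 16 (Birc3) bases before it. They are Traf1 at chr2:34961773-34962022 on the minus strand, Birc2 at chr9:7837065-7837307 on the minus strand, Birc3 at chr9:7873187-7873420 on the minus strand, and Traf3 at chr12:111166120-111166369 on the plus strand, with the match in capitals.
Traf1: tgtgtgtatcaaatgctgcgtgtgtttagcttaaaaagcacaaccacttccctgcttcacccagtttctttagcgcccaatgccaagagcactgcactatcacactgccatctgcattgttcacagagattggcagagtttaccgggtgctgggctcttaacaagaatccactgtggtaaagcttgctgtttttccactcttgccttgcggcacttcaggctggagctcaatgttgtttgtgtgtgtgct
Birc2: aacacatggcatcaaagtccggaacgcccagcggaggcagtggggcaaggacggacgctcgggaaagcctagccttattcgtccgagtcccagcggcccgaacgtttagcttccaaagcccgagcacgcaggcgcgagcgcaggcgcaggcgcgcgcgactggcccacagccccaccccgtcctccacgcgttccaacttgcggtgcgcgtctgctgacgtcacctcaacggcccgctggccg
Birc3: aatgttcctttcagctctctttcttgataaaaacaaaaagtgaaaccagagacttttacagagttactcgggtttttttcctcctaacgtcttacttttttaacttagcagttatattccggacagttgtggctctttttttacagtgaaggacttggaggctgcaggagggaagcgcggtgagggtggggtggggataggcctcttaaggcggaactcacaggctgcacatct
Traf3: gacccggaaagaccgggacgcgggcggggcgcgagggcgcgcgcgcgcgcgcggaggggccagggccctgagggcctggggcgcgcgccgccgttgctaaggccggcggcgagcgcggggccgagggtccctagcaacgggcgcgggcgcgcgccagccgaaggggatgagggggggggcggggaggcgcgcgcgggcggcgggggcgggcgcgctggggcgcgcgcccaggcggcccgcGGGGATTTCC
The match in Traf3 runs from -10 to -1 relative to the start site on the sense strand. Of the 10 windows of the 9 genes, each from 250 bases before to 50 bases after a start site, 1 held the NF-kB consensus on either strand, against 1480 of 32851 mouse windows (4.51%). None of the 10 held the AP-1 motif TGANTCA, against 2565 of the 32851 (7.81%). These are matches of letters and say nothing of binding.

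In the 6 libraries 9.61 M to 20.2 M reads (M for mega) were assigned to an allele, and the cast share of autosomal reads was between 49.3% and 49.4%. The T cell marker genes, 14 including Cd3e, Trac and Lck, summed to 1532 to 1591 RPKM (reads scaled by gene length in kilobases and by library depth in M) in stimulated and 1648 to 2033 in unstimulated libraries. In the test of the 1st comparison below, 8 of the 14 were lower in stimulated cells, 2 were higher and 4 did not pass. Markers of other cells of the spleen were also read, and all fell except 1 of 8 tested erythroid and platelet genes. Their summed RPKM in stimulated and unstimulated libraries ran from 120.1 to 213 against 1193 to 1851 for 13 B cell genes, from 12.2 to 14.1 against 1195 to 3457 for 13 myeloid genes, from 12.7 to 18.5 against 286 to 391 for 8 NK cell genes, and from 2.32 to 15.4 against 82.7 to 1342 for 9 erythroid and platelet genes. No marker was at 0 in all libraries of a group, and unstimulated replicate 3 had the highest sum of all 4 lists. The part of these cells in the results below was not tested, and in bulk RNA a gene read from fewer cells cannot be told apart from less RNA per cell.

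The 1st comparison asked how the level of each gene, in reads of both alleles together, differed after stimulation. Traf4, Traf1, Traf6 and Birc3 rose and Traf3ip3, Traf5, Birc2 and Traf3 fell, while Traf2 did not pass the test. Of the 9 genes 8 passed (limma on log2(RPKM + 1), Benjamini-Hochberg adjusted p below 0.05 over 13288 genes), which is close to the 80.1% of all genes tested that did so. The 4 higher genes stand against 31.2% of all genes and the 4 lower against 48.9%. The groups did not overlap for the same 8 genes, against 83.5% of all genes, and the median log2 fold change was -0.18 over the 9 and -0.24 over all genes. Log2 fold changes below are differences of mean log2(RPKM + 1), which understates the change of low genes, and folds are ratios of mean RPKM.

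**Figure D1:**
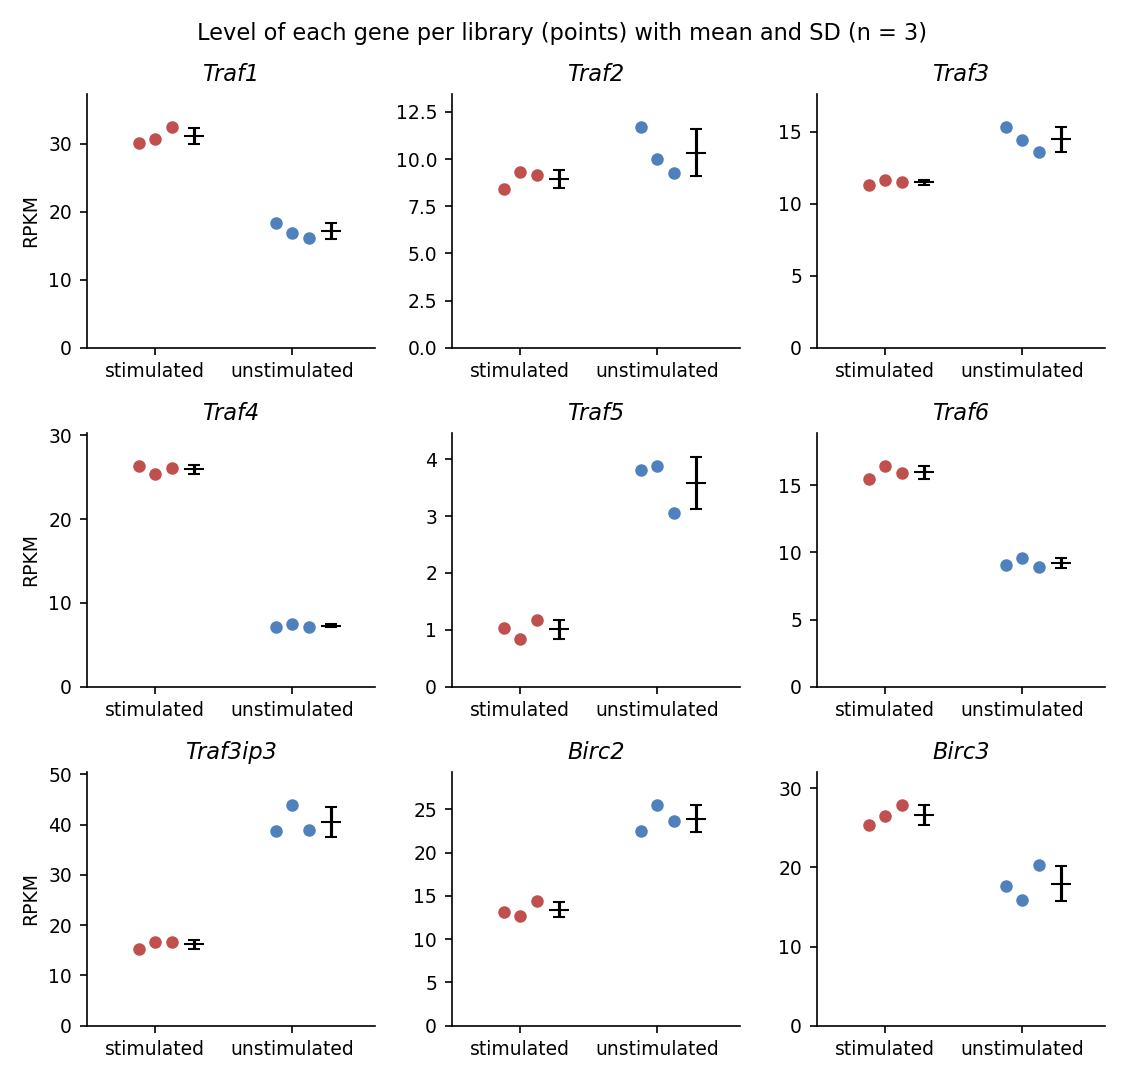
Each panel plots 1 gene, with RPKM on the vertical axis, points for the 3 stimulated (red) and 3 unstimulated (blue) libraries, and the mean with SD beside them. All panels but that of Traf2 show groups that do not overlap, and Traf4 has the widest gap among the genes that rose, at 25.9 against 7.27 RPKM.

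TRAF1 and TRAF2 form the platform that carries the cIAPs. TRAF1 lacks the RING domain of the other family members and its gene is a known NF-kB target. Traf1 had 30.2, 30.7 and 32.5 RPKM in stimulated libraries, against 18.4, 16.9 and 16.1 in unstimulated ones. Every stimulated library lay above every unstimulated one. The means were 31.2 ± 1.23 and 17.1 ± 1.15 (SD, n = 3 each), a rise of 1.82-fold (log2 fold change 0.83, SE 0.07, limma adjusted p = 3.8e-05). Traf2, whose protein has the RING domain and is the main binding partner of both cIAPs, had 8.41, 9.33 and 9.13 RPKM in stimulated and 11.7, 10.0 and 9.27 in unstimulated libraries. The highest stimulated library was above the lowest unstimulated one, so the groups overlapped. The log2 difference was -0.18 with a 95% interval from -0.41 to 0.04 (limma adjusted p = 0.114), and its sign turned to 0.0785 after median centring and to 0.17 and 0.14 in edgeR and DESeq2 on summed allelic counts. Without unstimulated replicate 3 Traf2 passed the test as lower (log2 -0.25, limma adjusted p = 0.0319).

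TRAF3 is the member that restrains NIK and also passes signals to the interferon kinases. Traf3 had 11.3, 11.6 and 11.5 RPKM in stimulated libraries, against 15.4, 14.5 and 13.6 in unstimulated ones. The groups did not overlap, and the stimulated libraries lay much closer together, at 11.5 ± 0.165 against 14.5 ± 0.883 RPKM (SD, n = 3 each). As deposited the gene fell by 0.31 on the log2 scale (SE 0.06, limma adjusted p = 0.0034), but this did not hold with other scalings, at -0.05 after median centring (limma adjusted p = 0.656), -0.19 after quantile normalisation (limma adjusted p = 0.100), and 0.0702 (edgeR) and 0.0417 (DESeq2), of the opposite sign, on summed allelic counts. The start of the gene overlaps an antisense gene, 4930595D18Rik, which reached at most 0.448 RPKM. Traf3ip3 encodes a lymphocyte-enriched protein that was found through its binding to TRAF3. It had 15.2, 16.7 and 16.6 RPKM in stimulated libraries, against 38.6, 44.0 and 39.0 in unstimulated ones. All stimulated libraries were below all unstimulated ones, with means of 16.2 ± 0.845 and 40.5 ± 3.00 RPKM (SD, n = 3 each), so that the unstimulated level was 2.51 times the stimulated one (log2 fold change -1.27, SE 0.07, limma adjusted p = 9.0e-06). It overlaps A130010J15Rik on the other strand, which reached at most 2.28 RPKM and 518 allelic reads in a library.

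TRAF4 is the least typical member, best known from epithelial and neural development. Traf4 had 26.4, 25.4 and 26.0 RPKM in stimulated libraries, against 7.16, 7.49 and 7.15 in unstimulated ones, and each group lay within a narrow range far from the other. The means were 25.9 ± 0.516 and 7.27 ± 0.193 RPKM (SD, n = 3 each), a rise of 3.57-fold (log2 fold change 1.70, SE 0.05, limma adjusted p = 1.2e-06), the largest rise among the 9 genes. TRAF5 is close to TRAF2 in sequence and binds OX40 and CD27. Traf5 had 1.03, 0.837 and 1.17 RPKM in stimulated libraries, against 3.81, 3.89 and 3.05 in unstimulated ones. It was the lowest of the 9 genes in every library, and a single stimulated library lay below 1 RPKM. Its means were 1.01 ± 0.165 and 3.58 ± 0.462 RPKM (SD, n = 3 each), the unstimulated 3.54 times the stimulated (log2 fold change -1.19, SE 0.11, limma adjusted p = 8.1e-05), and -0.64 after quantile normalisation (limma adjusted p = 0.0082). The smallest depth that fits the steps between low RPKM values puts 207 to 569 reads per library behind Traf5 and between 627 and 17438 behind each of the other genes.

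TRAF6 serves Toll-like and interleukin-1 receptors and also acts below the T cell receptor. Traf6 had 15.4, 16.5 and 15.9 RPKM in stimulated libraries, against 9.06, 9.59 and 8.89 in unstimulated ones. The groups were well apart, at means of 15.9 ± 0.505 and 9.18 ± 0.365 RPKM (SD, n = 3 each), a rise of 1.74-fold (log2 fold change 0.74, SE 0.06, limma adjusted p = 3.8e-05). In edgeR on summed allelic counts the log2 fold change was 1.23.

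Birc2 and Birc3 moved in opposite directions. Birc2 had 13.1, 12.7 and 14.4 RPKM in stimulated libraries, against 22.5, 25.6 and 23.7 in unstimulated ones, with no overlap. Its means were 13.4 ± 0.880 and 23.9 ± 1.55 RPKM (SD, n = 3 each), the unstimulated 1.78 times the stimulated (log2 fold change -0.79, SE 0.07, limma adjusted p = 7.6e-05). Birc3, a known NF-kB target, had 25.4, 26.5 and 27.9 RPKM in stimulated libraries, against 17.7, 15.8 and 20.3 in unstimulated ones. Here every stimulated library was the higher one, and the unstimulated libraries were spread more widely. Its means were 26.6 ± 1.26 and 17.9 ± 2.23 RPKM (SD, n = 3 each), a rise of 1.49-fold (log2 fold change 0.55, SE 0.09, limma adjusted p = 0.0014). Of the 36 pairs among the 9 genes, Birc2 and Birc3 were the 1 pair whose annotated transcripts share stretches of 50 bases, 65 of them, which is 1.42% of the distinct stretches of Birc2 and 1.28% of those of Birc3. How the authors counted reads that match both is not stated in the labels. On summed allelic counts edgeR gave log2 fold changes of -0.49 for Birc2 and 0.95 for Birc3.

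**Figure D2:**
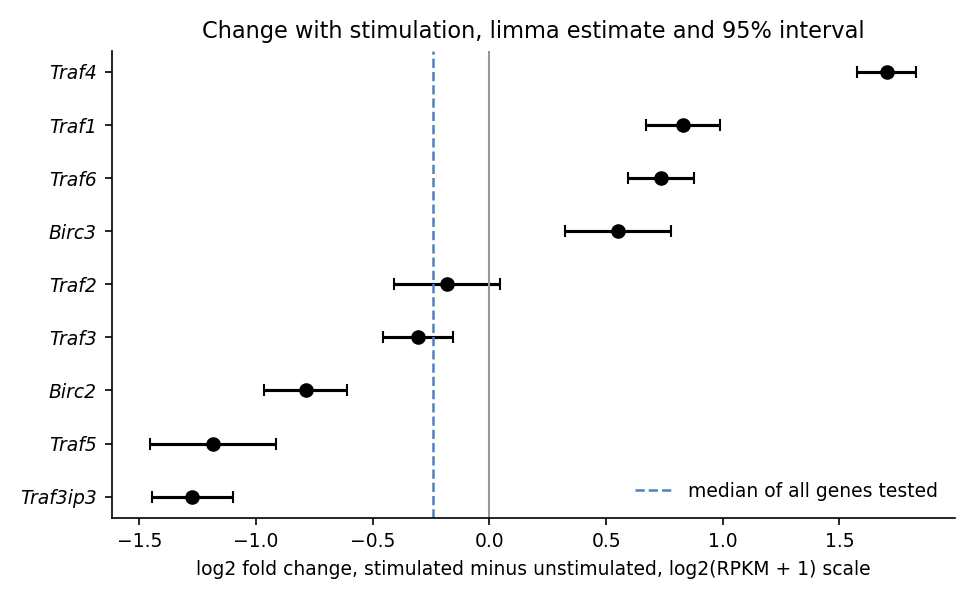
Points are log2 fold changes, stimulated minus unstimulated, on the log2(RPKM + 1) scale with 95% intervals from limma, 1 row per gene in order of size, and the dashed line marks the median of all genes tested at -0.24. Traf2, at -0.18, has the 1 interval that includes 0, and the intervals of Traf2 and Traf3 include the median of all genes.

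Relative to the median of all genes the 9 changes were 1.95 for Traf4, 1.07 for Traf1, 0.98 for Traf6, 0.79 for Birc3, 0.06 for Traf2, -0.06 for Traf3, -0.54 for Birc2, -0.94 for Traf5 and -1.03 for Traf3ip3 on the log2 scale. Median centring moved the median of all genes to 0.02 and quantile normalisation to 0.04, and that of the 9 genes to 0.0785 and -0.01. All genes together then split into 5432 higher and 5206 lower (median centring) or 5394 and 4878 (quantile normalisation), against 4148 and 6494 as deposited, and the 9 genes into 4 higher and 3 lower with both. The other 7 genes kept their direction and their call in both.

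The order of the levels in RPKM also differed between the groups. Levels of different genes, and the sums, shares and ratios below, rest on gene lengths that the sources used here do not state. In stimulated cells Traf1 was highest, followed by Birc3 and Traf4, by Traf3ip3 and Traf6, and then by Birc2, Traf3, Traf2 and Traf5. The library ranges of Birc3 and Traf4 overlapped, as did those of Traf3ip3 and Traf6, and all other neighbours in this order were apart. In unstimulated cells Traf3ip3 was highest, followed by Birc2, by Birc3 and Traf1, by Traf3, by Traf2 and Traf6, and then by Traf4 and Traf5, with overlaps between Birc3 and Traf1 and between Traf2 and Traf6. Traf4 thus stood among the highest 3 in stimulated cells and 2nd from the bottom in unstimulated cells.

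The 6 TRAF genes together summed to 92.8, 94.4 and 96.3 RPKM in stimulated libraries, against 65.5, 62.3 and 58.1 in unstimulated ones. The groups did not overlap (94.5 ± 1.79 and 61.98 ± 3.72, SD, n = 3 each), and the exact two-sided permutation test gave p = 0.1, the smallest p that 3 against 3 libraries allow. Traf4 made up 27.4% ± 0.853 of this sum in stimulated and 11.8% ± 0.728 in unstimulated libraries. Traf1 made up 33.0% ± 0.696 and 27.6% ± 0.510, and Traf6 16.9% ± 0.491 and 14.8% ± 0.871. The shares of the remaining TRAF genes were lower in stimulated libraries. Traf3 held 12.2% ± 0.181 in stimulated and 23.4% ± 0.130 in unstimulated libraries, Traf2 9.48% ± 0.408 and 16.6% ± 1.08, and Traf5 1.07% ± 0.166 and 5.77% ± 0.494 (SD, n = 3 each). None of the 6 shares overlapped between the groups, with an exact permutation p of 0.1 each, and shares that sum to a whole cannot move independently.

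**Figure D3:**
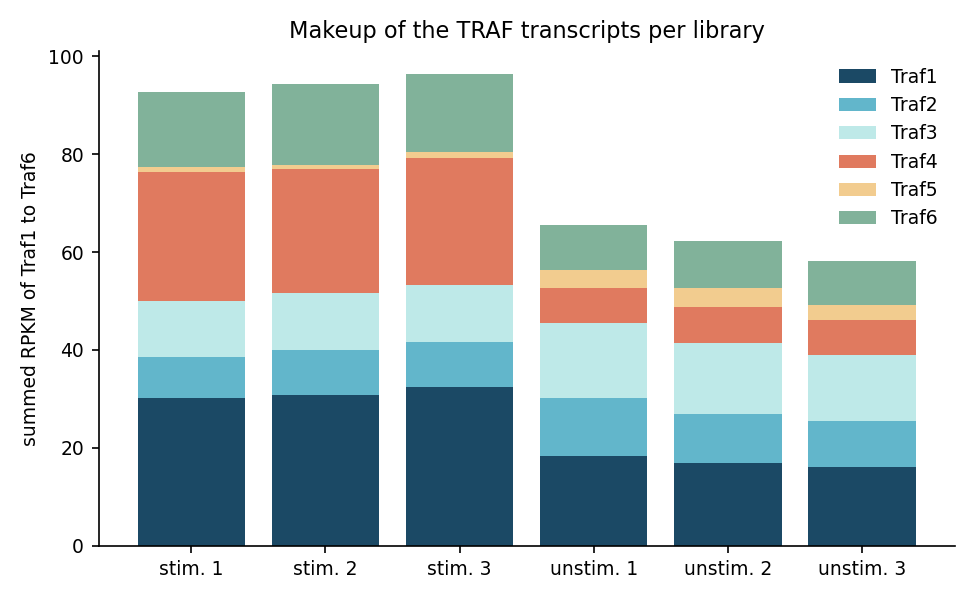
Bars give the summed RPKM of Traf1 to Traf6 in each library, stimulated on the left and unstimulated on the right, split by gene in color. The stimulated bars reach 92.8 to 96.3 RPKM with a wide Traf4 block, and the unstimulated bars 58.1 to 65.5 RPKM with a narrow one.

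The ratio of Birc3 to Birc2 was 1.93, 2.08 and 1.94 in stimulated libraries, against 0.786, 0.619 and 0.854 in unstimulated ones. Birc3 thus exceeded Birc2 in every stimulated library and was below it in every unstimulated one. The mean log2 ratio was 0.99 ± 0.06 in stimulated and -0.42 ± 0.24 in unstimulated libraries (SD, n = 3 each), a difference of 1.41 (exact two-sided permutation p = 0.1). The sum of Birc2 and Birc3 was 38.5, 39.2 and 42.3 RPKM in stimulated and 40.1, 41.4 and 44.0 in unstimulated libraries, with overlapping groups (exact permutation p = 0.4). The ratio of Traf1 to Traf2, the 2 platform genes, was 3.59, 3.30 and 3.56 in stimulated libraries, against 1.57, 1.68 and 1.74 in unstimulated ones, a difference of 1.07 on the log2 scale with no overlap (exact permutation p = 0.1). A factor common to all genes of a library does not change these ratios.

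The 2nd comparison asked whether stimulation changed how much of each transcript came from the mus and from the cast copy, which the hybrid background allows to be counted. The cast share of Traf1 and Birc2 fell and that of Birc3 rose. Of the 9 genes 8 reached the minimum of 30 allelic reads per group, and 3 of these 8 passed the test of a changed share (edgeR quasi-likelihood, allele by group, Benjamini-Hochberg over 12470 autosomal genes), where 10.4% of those genes did. The 1 higher cast share stands against 5.73% of the genes and the 2 lower against 4.69%. The shares of 5 of the 8 genes, Traf1, Birc2, Birc3, Traf3 and Traf4, did not overlap between the groups. This held for 28.3% of the 12447 autosomal genes of the fit with allelic reads in all 6 libraries. The 10.4% and 28.3% also cover genes with far fewer reads, whereas the 8 genes held 511 to 30619 allelic reads per group. With a minimum of 100 allelic reads, 1305 of 10283 autosomal genes passed the test of a changed share, and the same 3 genes did. Traf5 could not be tested, since it had 0 allelic reads in stimulated and 2 in unstimulated libraries, both cast.

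For Traf1 the cast copy gave 36.4%, 35.3% and 34.7% of allelic reads in stimulated libraries, against 48.0%, 48.9% and 48.0% in unstimulated ones. The unstimulated libraries were near equal parts, and all stimulated ones lay well below. Counting intervals are given for stimulated replicate 1 (8225 allelic reads, exact Clopper-Pearson 95% interval 35.4% to 37.5%) and unstimulated replicate 1 (3896 reads, 46.4% to 49.6%). Such intervals cover counting error only and are too narrow, since reads came mostly in pairs. The means differed by -12.9 points (35.5% ± 0.876 and 48.3% ± 0.531, SD, n = 3 each), or -0.77 in the log2 ratio of cast to mus (SE 0.06, edgeR adjusted p = 7.1e-07). Both copies were read more often after stimulation, but unequally. Mus reads averaged 370 ± 19.7 per M allelic reads in stimulated and 153 ± 15.7 in unstimulated libraries, a ratio of 2.42, and cast reads 203 ± 3.58 and 143 ± 13.9, a ratio of 1.42.

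For Birc3 the cast copy gave 52.1%, 55.0% and 50.4% in stimulated libraries, against 33.0%, 31.2% and 36.6% in unstimulated ones. Here the stimulated libraries were near equal parts or above, and the unstimulated ones lay far toward mus. The exact intervals of the closest pair, stimulated replicate 3 (6421 reads, 49.2% to 51.7%) and unstimulated replicate 3 (2401 reads, 34.6% to 38.5%), were far apart, though too narrow as above. The means differed by 18.9 points (52.5% ± 2.29 and 33.6% ± 2.74, SD, n = 3 each), or 1.13 in the log2 ratio (SE 0.10, edgeR adjusted p = 2.2e-06). Mus reads averaged 143 ± 11.9 per M allelic reads in stimulated and 122.9 ± 10.7 in unstimulated libraries, a ratio of 1.17, whereas cast reads averaged 158 ± 8.25 and 62.7 ± 12.3, a ratio of 2.53.

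For Birc2, the neighbour of Birc3, the share moved the other way. The cast copy gave 46.7%, 43.2% and 48.1% in stimulated libraries, against 55.3%, 55.9% and 53.7% in unstimulated ones. The stimulated libraries were below equal parts and the unstimulated ones above. The difference was -8.95 points (46.0% ± 2.54 and 55.0% ± 1.13, SD, n = 3 each), or -0.52 in the log2 ratio (SE 0.09, edgeR adjusted p = 0.0021). Mus reads averaged 66.4 ± 3.00 per M allelic reads in stimulated and 92.5 ± 4.51 in unstimulated libraries, a ratio of 0.717, and cast reads 56.8 ± 7.49 and 113 ± 9.81, a ratio of 0.503. Within the 12470 autosomal genes, 9.73% (1213 genes) had a larger absolute log2 change of share than Birc3, 16.8% (2094) than Traf1 and 27.6% (3443) than Birc2. Not all of these passed the test, at 376 of the 1213, 591 of the 2094 and 895 of the 3443 genes. For each of the 3 genes, allelic reads per M stood in nearly the same ratio to RPKM in both groups, at 18.4 (stimulated) and 17.2 (unstimulated) for Traf1, 11.3 and 10.4 for Birc3, and 9.17 and 8.60 for Birc2.

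**Figure D4:**
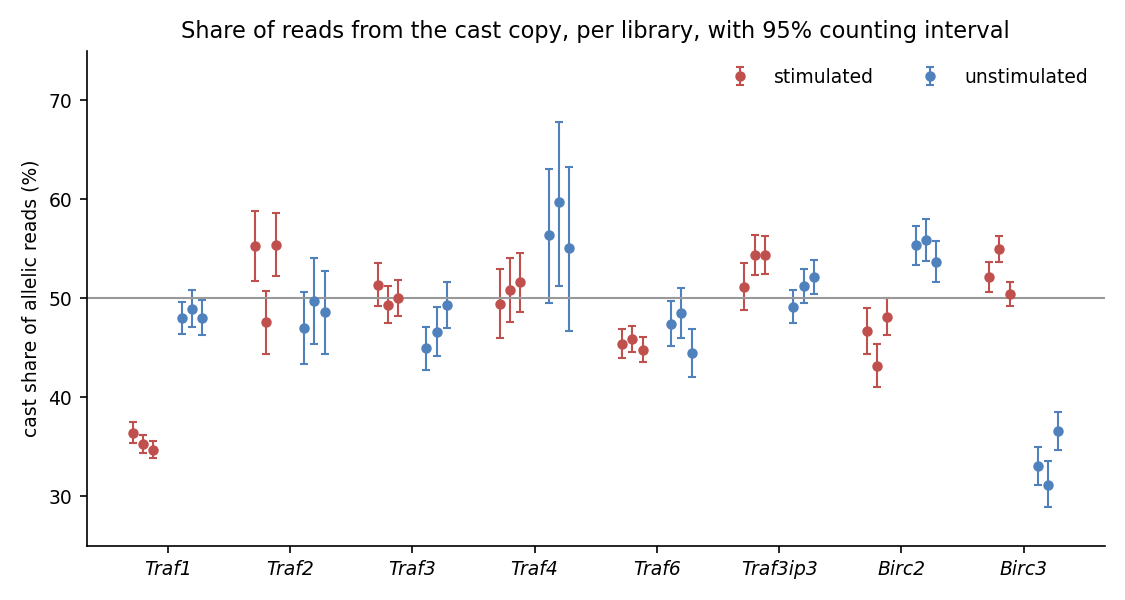
Points give the cast share of allelic reads in percent for each library of 8 genes, stimulated (red) left of unstimulated (blue), with exact 95% counting intervals, and the horizontal line marks 50%. Traf1 and Birc3 show the widest gaps, at means of 35.5% against 48.3% and 52.5% against 33.6%.

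**Figure D5:**
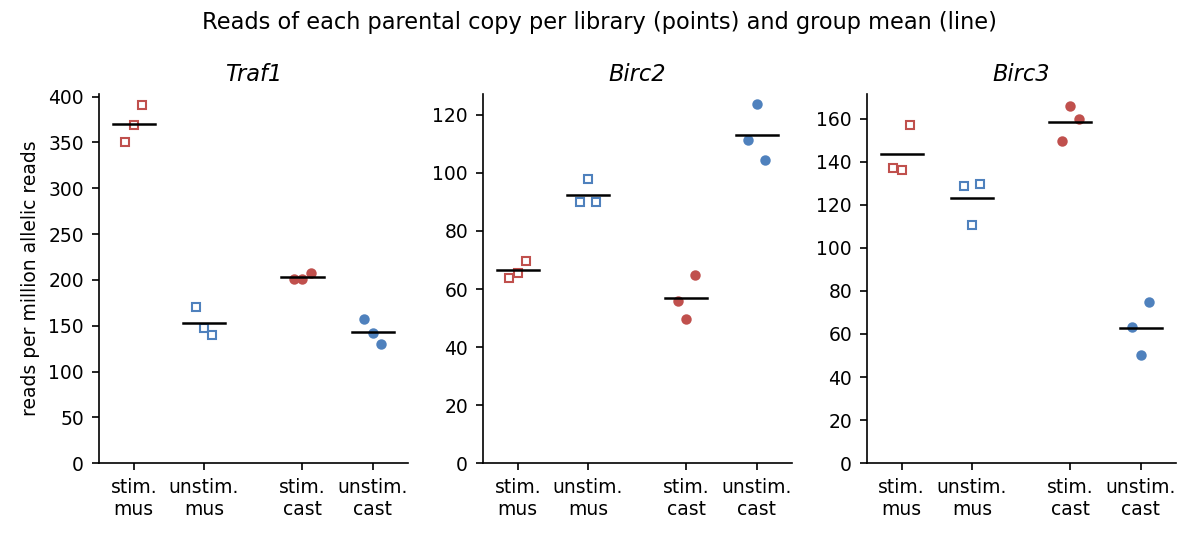
Points give reads of the mus copy (open squares) and of the cast copy (filled circles) per M allelic reads in each library, with a line at the mean, for Traf1, Birc2 and Birc3. The mus copy of Traf1 has the larger gap between the groups (370 against 153), as have the cast copies of Birc3 (158 against 62.7) and Birc2 (56.8 against 113).

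The other 5 genes did not pass this test. Traf4 had cast shares of 49.5%, 50.8% and 51.6% in stimulated libraries and of 56.4%, 59.7% and 55.1% in unstimulated ones (log2 difference -0.37, SE 0.17, edgeR adjusted p = 0.224). These groups did not overlap, but the unstimulated libraries held 144 to 220 allelic reads each. Traf3 had 51.4%, 49.4% and 50.03% in stimulated and 44.9%, 46.6% and 49.3% in unstimulated libraries, which did not overlap by a narrow margin (log2 difference 0.19, SE 0.09, edgeR adjusted p = 0.236). Traf2 (0.25, SE 0.16), Traf3ip3 (0.15, SE 0.08) and Traf6 (-0.08, SE 0.08) had overlapping shares, with edgeR adjusted p-values of 0.380, 0.327 and 0.606.

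The 3rd comparison set each cast share against equal parts within each group, in the same edgeR fit. In stimulated cells 4 of the 8 genes departed from equal parts, against 35.5% of the autosomal genes tested. Traf3ip3 leaned to cast (53.3% ± 1.86, edgeR adjusted p = 0.0196), as 15.3% of genes did, and Traf1 (35.5%, 3.5e-10), Traf6 (45.4% ± 0.532, 0.0012) and Birc2 (46.0%, 0.0141) leaned to mus, as 20.3% did. The call of Birc2 was lost without stimulated replicate 2 (edgeR adjusted p = 0.179) and with an offset per allele (0.0503), and that of Traf3ip3 without stimulated replicate 2 (0.131) or 3 (0.128). Birc3 did not pass (edgeR adjusted p = 0.103) but did with the replicate number as a block (0.0406) and with an offset per allele (0.0308).

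In unstimulated cells 4 of the 8 genes departed, against 30.2% of the autosomal genes. Birc2 (55.0%, edgeR adjusted p = 0.0042) and Traf4 (57.1% ± 2.39, 0.0396) leaned to cast, as 12% of genes did, and Birc3 (33.6%, 6.7e-08) and Traf6 (46.8% ± 2.09, 0.0253) to mus, as 18.2% did. Traf6 was thus below equal parts in both groups, and Birc2 on opposite sides. The call of Traf4 was lost with the replicate block (edgeR adjusted p = 0.0622), in DESeq2 (adjusted p = 0.101), without a filter on allelic reads (0.0865) and without any 1 of the 6 libraries (0.0561 to 0.169). That of Traf6 was lost without unstimulated replicate 1 (edgeR adjusted p = 0.0516) or 3 (0.189) and with an offset per allele (0.160). Traf3 did not pass (edgeR adjusted p = 0.0581) but did so toward mus with the replicate block (0.0485) or when unstimulated replicate 3 was left out (0.0305).

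The genes that work with the TRAFs and cIAPs were listed by role, also with earlier results of these data known. Of 73 tested genes over all 8 lists, 21 were higher and 43 lower in stimulated cells, with a median log2 fold change of -0.35, beside 31.2% higher, 48.9% lower and a median of -0.24 over all genes. With median centring the split was 25 higher and 34 lower, and with quantile normalisation 24 and 33. The markers of B cells, myeloid cells and NK cells fell alongside (all of 13, 13 and 8 genes), and their part was not tested.

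Among TNF receptors that bind TRAFs, 5 of 13 tested were higher and 8 lower (median log2 fold change -0.99). After quantile normalisation 5 were higher and 6 lower (median -0.54). With a filter of at least 5 RPKM in at least 3 libraries, 9 were tested, of which 5 were higher and 4 lower, so part of the falls rested on low genes. The 3 largest changes were the rises of Tnfrsf9 (4-1BB), at 111 ± 2.01 RPKM in stimulated and 3.37 ± 0.300 in unstimulated cells (log2 4.69), Tnfrsf8 (CD30), at 42.4 and 0.738 RPKM (log2 4.64), and Tnfrsf4 (OX40), at 224 and 9.15 RPKM (log2 4.48). In the TNF receptor 1 complex with the linear ubiquitin ligase LUBAC and the kinase TAK1, 1 of 14 was higher and 11 lower (median -0.38), among them the IkB kinase Ikbkb (log2 -1.54), the receptor Tnfrsf1a (-1.42) and the kinase Ripk1 (-0.82). After median centring or quantile normalisation this list held 2 higher and 6 lower genes, without stimulated replicate 1 or stimulated replicate 3 it held 7 lower, and in edgeR and DESeq2 on summed allelic counts 5 of 13 were lower.

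The noncanonical NF-kB arm, which TRAF3 and the cIAPs restrain, had 3 of 4 genes higher and 1 lower (median 0.24). Nfkb2, the p100 precursor, rose by 1.19 on the log2 scale, Chuk, the kinase IKK alpha, by 0.24, and Map3k14, which encodes NIK, fell by 0.53. The fall of Map3k14 did not pass after median centring or in edgeR and DESeq2 on summed allelic counts, and without stimulated replicate 1, stimulated replicate 2 or unstimulated replicate 2 the list held 1 higher gene. Of 12 deubiquitinases and inhibitors 4 were higher and 5 lower (median -0.11, which turned to 0.15 after median centring). The largest change was in Tnfaip3, the deubiquitinase A20, at 24.1 ± 1.52 RPKM in stimulated and 91.8 ± 13.2 in unstimulated cells (log2 -1.88), followed by Zc3h12a, the RNase Regnase-1 (-1.33), and N4bp1 (-1.10).

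Of 10 genes that feed into TRAF6, 1 was higher and 7 were lower (median -0.47). The split was 3 higher and 5 lower with median centring and 2 and 5 with quantile normalisation, and 2 were higher without stimulated replicate 1 and 4 in edgeR and DESeq2 on summed allelic counts. The largest changes were falls of Tifa (log2 -2.26) and Irak3 (-2.22), an inhibitory member of the IRAK family. Of 7 genes that carry TRAF3 signals toward interferon, 3 were higher and 4 lower (median -0.68), led by the kinase Ikbke (log2 -2.28) and the TBK1 adaptors Tbkbp1 (1.77) and Azi2 (-0.92). Of 5 other genes named for TRAF binding or a TRAF-type domain, 2 were higher and 2 lower (median -0.12, which turned to 0.14 after median centring and 0.36 after quantile normalisation, the last with 3 higher), led by Traip (log2 1.47), Trafd1 (-1.17) and Traf3ip2 (-0.99). Of 8 other IAP genes and IAP antagonists 2 were higher and 5 lower (median -0.43), led by Naip5 (log2 -2.56), Birc5, the mitotic protein survivin (2.55), and Naip6 (-2.38). Birc5 had 15.4, 16.2 and 16.8 RPKM in stimulated and 1.04, 0.993 and 5.13 in unstimulated libraries, so unstimulated replicate 3 stood apart from the other unstimulated ones. Naip5 and Naip6 belong to a family of close copies, between which reads may have been split.

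Traf4 had the largest rise and Traf3ip3 the largest fall on the log2(RPKM + 1) scale. With pseudocounts of 0.5 and 0.1 the largest fall was instead that of Traf5, at -1.43 and -1.73, against -1.30 and -1.32 for Traf3ip3. The genes with profiles nearest to those of Traf4 and Traf3ip3 were found among 13287 genes, by the root mean square distance of log2(RPKM + 1) over the 6 libraries, each gene centred on its own mean. For Traf4 they were Cysltr2, a leukotriene receptor (0.041), Slc3a2, a chain of amino acid transporters (0.0461), and Fasn, the fatty acid synthase (0.0503), and 60 genes lay within 0.1. For Traf3ip3 they were Spty2d1 (0.0225), Gm8189 (0.0297) and Elk4, an ETS family transcription factor (0.0299), and 230 genes lay within 0.1. Gm8189 had only 0.066 RPKM in stimulated and 1.63 in unstimulated libraries, a range where the added 1 understates the change.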

How the data were processed

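Per the labels' protocols, a stranded kit for total RNA with removal of ribosomal RNA was used. The submitters' processing notes name STAR 2.7.1a, featureCounts and mm10. The deposited tables hold RPKM per gene for both alleles together and, per the file headers, counts of reads per gene assigned to the C57BL/6 (mus) or castaneus (cast) allele. The sources used here name no allele assignment method, strand setting, annotation or denominator of the RPKM. Of 49671 gene IDs, 49326 matched GENCODE M21.

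Depth shows in the low deposited RPKM values, of which 93.4% to 94.0% lay on whole read steps (tolerance 0.04 steps, up to step 20, with GENCODE M21 exon lengths). The smallest depths that fit are 45.5, 54.1 and 60.8 M reads for the stimulated and 32.7, 25.4 and 30.0 M for the unstimulated libraries. Whole multiples of these depths would fit as well. Of the deposited allelic counts from 1 to 20, 71.4% to 75.3% were even, so reads come mostly in pairs, and counting intervals, which cover counting error only, are too narrow.

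In R 4.3.3, genes that reached 1 RPKM in 3 or more libraries were tested as log2(RPKM + 1) with a trend in limma 3.58.1. Autosomal genes with 30 or more allelic reads per group were tested by the quasi-likelihood method of edgeR 4.0.16, in a model with 1 term per library and a cast effect per group. All tests are two-sided. Benjamini-Hochberg adjustment, at a threshold of 0.05, ran over all genes of the RPKM fit and over the autosomal genes of the allelic fit. The allelic fit itself also held genes of other chromosomes with the same minimum of reads. Ratios and shares were compared with exact permutation tests over libraries. Both fits were tested on simulated data, where the allelic fit recovered slightly fewer of the known changes than a bar set at the outset, which was then lowered. P-values measure the spread between libraries, which the labels do not tie to named animals.

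The labels give both groups the same replicate numbers. Diploid levels of same-numbered libraries, centred within groups, correlated at 0.00603, 0.0611 and 0.0908 over genes. Autosomal log2 ratios of cast to mus correlated at 0.282, 0.298 and 0.182 (9043 genes), so the numbers may pair the libraries in the allelic ratios. The main fits, the allelic one included, did not use this pairing, and the replicate block entered only as an alternative.

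The named genes are the 9 members, the 3 largest called changes of each list and the 3 nearest profiles, except 1 gene of a list that is not reported here. The members and lists were chosen with earlier results of these data known. Alternatives were other pseudocounts, filters, scalings and offsets, DESeq2 1.42.0, the replicate block, and leaving out each library.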

Additional observations from a re-analysis of the deposited data

Results flagged for a closer look

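The difference between the mus and the cast copy in their response to stimulation passed the test of that difference for 3 genes (edgeR quasi-likelihood, allele by group). The log2 ratio of cast to mus in stimulated minus that in unstimulated cells was -0.77 for Traf1, -0.52 for Birc2 and 1.13 for Birc3. For all 3 genes every stimulated library lay on 1 side of every unstimulated one. This adds no support, since the genes were picked by a test on the same shares. Of the autosomal genes tested 10.4% passed that test, and 28.3% of those with allelic reads in all libraries did not overlap. Groups of 3 libraries are too small for a test of single outlying libraries, but the 3 calls held when each library was left out in turn.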

How the results depend on the processing

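The direction and call of Traf1, Traf4, Traf5, Traf6, Traf3ip3, Birc2 and Birc3 in RPKM, and those of the changed cast shares of Traf1, Birc2 and Birc3, were the same in every alternative in which the gene was tested. Traf2 changed sign to 0.0785 with median centring, 0.17 in edgeR and 0.14 in DESeq2 on summed allelic counts, and Traf3 to 0.0702 and 0.0417 in the last 2. The stimulated log2 ratio of cast to mus of Traf3 ran from -0.0176 (without stimulated replicate 1) to 0.0399 over the replicates left out. Leaving out each replicate in turn left 2 to 4 of the 8 genes away from equal parts in stimulated cells and 2 to 3 in unstimulated cells, 4 in each with all libraries. The cause was not tested. With the replicate block 10464 genes passed in RPKM (10642 without it) and 1644 in the change of cast share (1300 without it), and beyond the calls given in the text the block changed no call of the 9 genes. The low depth of Traf4 in unstimulated cells (511 allelic reads in all) and the 2 allelic reads of Traf5 limit what their shares can show.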

Other observations

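Cast shares of genes within 500 kb of Traf1, Birc2 and Birc3 were read after the values of these 3 genes had been seen. Near Birc2 and Birc3, Tmem123, 23.9 kb from Birc2 and 54.4 kb from Birc3, had a cast share of 37.1% ± 0.618 in stimulated and 43.7% ± 1.95 in unstimulated libraries (SD, n = 3 each, log2 difference -0.40, edgeR adjusted p = 0.0013). Its change was toward mus, as that of Birc2, and opposite to that of Birc3. Birc2 and Birc3 prompted this look, so their own changes do not count as further genes of the window. Over all autosomal genes tested 10.4% passed. Mmp12, the other gene tested there, had 65.7% ± 15.6 in stimulated and 89.0% ± 7.82 in unstimulated libraries. Its log2 difference of -2.30 did not pass (edgeR adjusted p = 0.115), but its 48 stimulated and 215 unstimulated allelic reads are too few to call it unchanged. Of 13 genes tested around Traf1, 1 passed, where 10.4% of all autosomal genes tested did. It was Rab14 at 218 kb, with 54.2% ± 2.18 in stimulated and 45.8% ± 2.76 in unstimulated libraries (log2 difference 0.49, edgeR adjusted p = 0.0163), opposite in sign to Traf1.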
